A study of Homo sapiens with 60 samples.

Results

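Cells given 100 µg/mL of an ethanol extract of Glycyrrhizae Radix, the root of licorice, were compared with cells given 20 µg/mL of the same extract, the lowest dose step of its series. The comparison rests on 6 of the 60 libraries of the study, 3 at each dose, chosen by their dose labels. The cells were A549, an established human lung adenocarcinoma line grown as an attached layer, and their messenger RNA was sequenced 24 h after treatment. The 2 doses are 5-fold apart, as are 100 and 500 µg/mL, so the step from 100 to 500 µg/mL (3 libraries at 500) is given beside it. The same step of a Ginseng extract in the same set of sample codes (3 libraries at each dose) shares no library with it, and 3 vehicle libraries (DMSO) give the level without extract. All groups are the same cell line at the same time, and no genotype or second agent is named for them. The labels give 20, 100 and 500 µg/mL for these libraries, whereas the design text gives lower, toxicity-based doses for some extracts, and DMSO is 0.1% in the vehicle labels and 2% in the design text. Nothing in the labels ties replicates to separate cultures, so the spread behind the p-values may be technical. The main fit took that spread from all 60 libraries in 25 groups, not from these 6 alone.

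The 6 libraries held 23577756 to 29764358 counts. Levels are given in CPM, a gene's count relative to its library's normalised total, and changes as log2 fold change ± SE. Tests are edgeR's quasi-likelihood tests, with p-values adjusted by Benjamini-Hochberg over 17764 genes. The SE was worked back from the test, as the size of the log2 change over the square root of its F statistic. It is therefore not the spread of the compared libraries alone. A gene is called at an adjusted p under 0.05, and "rose" and "fell" are used of called genes. All 8 epithelial and A549 markers passed the filter on low counts and summed to 18300 to 19400 CPM in the 6 libraries. Of 8 leukocyte markers 2 passed and of 6 endothelial markers 2, with PTPRC and VWF among those that did not, and each of these lists and the fibroblast list summed to at most 30.4 CPM. Within the 20 µg/mL group replicate 2 differed most from the others by a chi-square of counts, and so did replicate 2 within the 100 µg/mL group, so calls are also given without both.

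The aryl hydrocarbon receptor (AHR) is a transcription factor held in the cytoplasm until a flat aromatic compound binds it. It then pairs in the nucleus with ARNT and binds DNA at a short core sequence near genes of xenobiotic metabolism, such as the cytochromes P450 CYP1A1 and CYP1B1. The same genes include its own repressors, AHRR, which competes for ARNT, and TIPARP, an ADP-ribosyltransferase. A549 cells carry a defective KEAP1, the inhibitor of the antioxidant factor NRF2, and so express NRF2 genes at a high level without treatment. They also transcribe fibrinogen and other secreted proteins that are typical of liver.

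The 250 bases before the start sites of 3 called AHR genes are shown because these genes rose in the first step and the receptor's core GCGTG can be read in them. The core, or its reverse complement CACGC, is in capitals, all sequences run 5′ to 3′ on the strand of the gene, and they are from RefSeq on GRCh38.p14. CYP1A1 lies on the minus strand (chr15:74725529-74725778), AHRR on the plus strand (chr5:321464-321713) and TIPARP on the plus strand (chr3:156674340-156674589).
CYP1A1: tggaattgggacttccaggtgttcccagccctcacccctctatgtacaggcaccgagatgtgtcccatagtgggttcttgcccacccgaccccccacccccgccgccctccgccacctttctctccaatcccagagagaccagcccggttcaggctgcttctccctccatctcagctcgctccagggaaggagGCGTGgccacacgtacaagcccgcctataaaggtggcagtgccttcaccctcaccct
AHRR: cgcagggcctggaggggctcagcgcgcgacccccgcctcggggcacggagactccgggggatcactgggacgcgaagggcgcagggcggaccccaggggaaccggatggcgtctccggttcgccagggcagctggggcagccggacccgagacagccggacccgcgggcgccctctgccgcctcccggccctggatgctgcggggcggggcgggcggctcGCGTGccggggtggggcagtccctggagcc
TIPARP: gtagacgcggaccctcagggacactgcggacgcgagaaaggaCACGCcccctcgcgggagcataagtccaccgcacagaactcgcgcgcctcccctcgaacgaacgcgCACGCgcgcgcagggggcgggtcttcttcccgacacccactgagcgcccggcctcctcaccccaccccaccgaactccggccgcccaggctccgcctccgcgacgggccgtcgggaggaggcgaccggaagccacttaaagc
The core starts 57 bases before the start site of CYP1A1, 30 before that of AHRR, and 208 and 142 before that of TIPARP. RefSeq windows were matched for 10 of the 12 AHR list members and for 3 of the 5 that were called, and some genes have several windows with other contents. Of the 7 members with a window that were not called, 4 also hold the core in a window of 300 bases. Searched on both strands, the core is in 36.5% of all 35116 windows of 300 bases, so a match is common and is a description of these letters only.

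From 20 to 100 µg/mL 140 of 17764 genes were called, 0.788% of those tested. Of these, 32 rose (0.18%) and 108 fell (0.608%). Most changes were small: 6 genes rose and 18 fell by at least 1.5-fold, and 2 rose and 5 fell by at least 2-fold. The median change was 0.31 among the 32 genes that rose and -0.31 among the 108 that fell, against -0.0011 over all genes tested. Most called genes did not overlap between the doses, so a lack of overlap in a called gene is a description and no further support. The share without overlap over all genes tested was not counted. With the replicate number as a block, which the samples' shared deviations allow, 211 genes were called, 62 higher and 149 lower, and all 140 were among them. In a fit of only these 6 libraries 8 genes were called, CYP1A1, CYP1B1, ALDH3A1, AQP3, LEFTY1, PGC, STC1 and the transcript ENSG00000223414. The count was 76 without replicate 2 at 100 µg/mL, 65 without replicate 3 at 20 µg/mL, and 70 without replicate 2 of both doses. Of 57 named genes that were called, 22 lost the call without replicate 2 of both doses, and this is given where such a gene is described.

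AHR genes were among the largest rises: CYP1A1, AHRR, CYP1B1 and ALDH3A1 were 4 of the 5 genes that rose most, with the transcript ENSG00000214248 (log2 2.47, named after its value was seen) as the other. Of the 11 list members tested 5 rose and none fell, with a median of 0.13 over the 11. Over all genes tested 0.18% rose. This and the other lists were chosen with earlier results of these data known, so their counts describe and do not test. AHR and ARNT themselves were at log2 0.01 ± 0.06 and -0.07 ± 0.05 (neither called). CYP1A1 (ENSG00000140465, chromosome 15, 74719542 to 74725610 on GRCh38), whose enzyme oxidises polycyclic aromatic compounds, stood at 0.604, 0.232 and 0.562 CPM at 20 µg/mL and at 10, 9.53 and 7.89 CPM at 100 µg/mL. The groups lay far apart, and CYP1A1 rose by 4.27 ± 0.21 (edgeR adjusted p = 8.75e-20), from 0.466 ± 0.204 to 9.14 ± 1.11 CPM (mean ± SD, 3 libraries each). The low-dose libraries held 16, 6 and 16 counts of it. At 500 µg/mL it reached 215 ± 5.34 CPM, a further 4.55 ± 0.11, and no difference between the 2 steps was shown (-0.29 ± 0.36, adjusted p = 0.667).

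CYP1B1, a related P450 that also oxidises estrogens, was already abundant at 144, 142 and 137 CPM at 20 µg/mL and stood at 243, 257 and 238 CPM at 100 µg/mL. No library of one dose reached the other, and the rise was 0.80 ± 0.04 (1.74-fold, adjusted p = 8.75e-20). Its second step was larger at 1.85 ± 0.04, to 888 ± 11.7 CPM (difference of the steps -1.05 ± 0.07, adjusted p = 3.32e-16). ALDH3A1, an aldehyde dehydrogenase that oxidises medium-chain and aromatic aldehydes, went the other way. It stood at 1210, 1140 and 1260 CPM at 20 µg/mL and 2020, 1760 and 1820 CPM at 100 µg/mL, a rise of 0.63 ± 0.04 (adjusted p = 2.59e-15). From there to 500 µg/mL it gained 0.20 ± 0.04, and the first step was the larger (0.44 ± 0.07, adjusted p = 8.41e-06).

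Both repressors rose. TIPARP had 28.9, 30.4 and 30.4 CPM at 20 µg/mL and 36.4, 39.4 and 38.5 CPM at 100 µg/mL, with no overlap. Its rise of 0.35 ± 0.05 (adjusted p = 1.15e-05) was followed by one of 1.84 ± 0.05 in the second step, to 137 ± 0.429 CPM (difference of the steps -1.49 ± 0.08, adjusted p = 3.48e-18). AHRR was a low gene, with 2.68, 2.36 and 1.69 CPM at 20 µg/mL and 4.3, 4.02 and 3.38 CPM at 100 µg/mL. It rose by 0.80 ± 0.18 (adjusted p = 0.0105), but not beyond the threshold without replicate 1 or 2 at 100 µg/mL (adjusted p = 0.0647 and 0.0596) or replicate 3 at 20 µg/mL (0.236), or without replicate 2 of both doses (0.106). The other tested members were not called by edgeR. NQO1, a quinone reductase shared by AHR and NRF2, was at 0.10 ± 0.05, UGT1A6, which conjugates phenols, at 0.12 ± 0.08, NFE2L2, the gene of NRF2 itself, at 0.13 ± 0.06, and LRAT, which esterifies retinol, at 0.02 ± 0.60. Without replicate 2 of both doses 4 of the 11 were called, and 3 of the 11 in the fit of only 6 libraries.

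**Figure D1:**
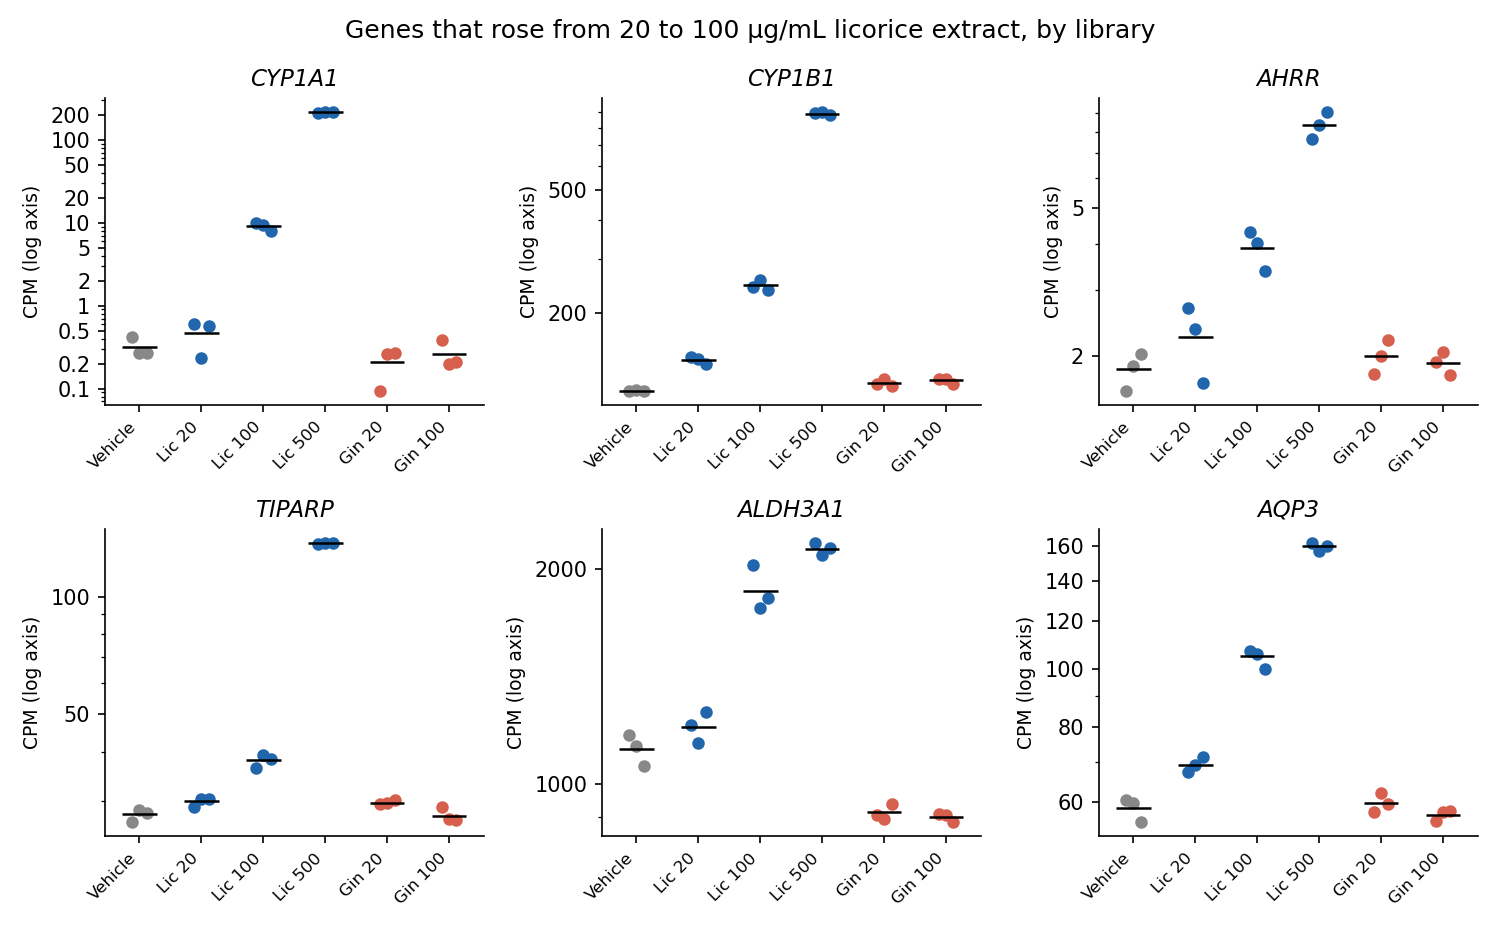
CPM of 6 genes in each library (points, log axis; black lines are means of 3 libraries) for vehicle, licorice extract at 20, 100 and 500 µg/mL (Lic) and ginseng extract at 20 and 100 µg/mL (Gin). The genes were picked among called rises, most of which did not overlap between the doses, so their separation is no further support. In all 6 genes the 3 licorice libraries at 100 µg/mL lie above the 3 at 20 µg/mL, most widely in CYP1A1 (7.89 to 10 against 0.232 to 0.604 CPM).

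AQP3, a membrane channel for water and glycerol, rose about as much in both steps. It stood at 67.4, 69.3 and 71.3 CPM at 20 µg/mL and at 107, 106 and 100 CPM at 100 µg/mL, with each library of the higher dose above all of the lower. The rise was 0.59 ± 0.05 (adjusted p = 2.75e-12) and the next was 0.61 ± 0.05, a difference of -0.02 ± 0.08 (adjusted p = 0.921). NOTCH3, a receptor of the Notch pathway, rose by 0.39 ± 0.06, from 39.9, 37.3 and 34.2 CPM to 52.4, 49.1 and 44.9 CPM.

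Among 21 tested enzymes and pumps of drug clearance 3 rose (against 0.18% of all genes tested) and none fell, with a median of 0.05. CYP4F3, which oxidises leukotriene B4, stood at 58.6, 63 and 57.3 CPM at 20 µg/mL and at 74.7, 79.5 and 79.5 CPM at 100 µg/mL. Its rise of 0.38 ± 0.05 (adjusted p = 3.17e-06) was undone in the second step, where it fell by 0.41 ± 0.05 on the log2 scale to 58.5 CPM. CYP4F11, a fatty acid hydroxylase of the same cluster, rose by 0.30 ± 0.05 and again by 0.40 ± 0.05. These genes are similar in sequence, so reads can be shared between them. UGT1A1, which conjugates bilirubin, rose by 0.32 ± 0.06 (29.5, 27.7 and 30.4 to 38.3, 33.8 and 37 CPM; adjusted p = 0.000639). It shares its last exons with the other UGT1A genes, of which UGT1A9, outside the naming rule and chosen after its values were seen, fell by 0.19 ± 0.05 on the log2 scale, so how reads were divided among them is uncertain.

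Of 21 tested NRF2 and glutathione genes 4 rose (against 0.18% of all genes tested) and none fell, with a median of 0.05 over the 21. They were the 2 subunits of the enzyme that limits glutathione synthesis, GCLM (0.22 ± 0.04, 133 to 155 CPM) and GCLC (0.20 ± 0.04, 211 to 242 CPM), the sulfiredoxin SRXN1 (0.19 ± 0.04, 304 to 348 CPM) and the cystine carrier SLC7A11 (0.25 ± 0.06, 135 to 160 CPM). All are small changes, and SLC7A11 overlapped between the doses (133, 147 and 124 against 143, 176 and 161 CPM). GCLC then fell by 0.51 ± 0.04 on the log2 scale to 170 ± 1.8 CPM at 500 µg/mL, below its level at 20 µg/mL, while GCLM and SLC7A11 rose again by 0.38 ± 0.04 and 1.00 ± 0.06. HMOX1, heme oxygenase, was at 0.03 ± 0.08 (41.2 ± 2.93 and 42 ± 5.15 CPM, not called). Without replicate 3 at 20 µg/mL none of the 4 kept its call (adjusted p = 0.0548 for GCLM, 0.0924 for GCLC, 0.0917 for SRXN1 and 0.486 for SLC7A11). GCLM was also lost without replicate 2 at 100 µg/mL (0.0586), and SLC7A11 without replicate 2 or 3 at 100 µg/mL (0.493 and 0.151) or replicate 1 at 20 µg/mL (0.169). Without replicate 2 of both doses 1 of the 21 rose, and GCLM (0.0729), SRXN1 (0.0855) and SLC7A11 (0.156) were not called.

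Single genes of growth signalling and amino acid supply rose. EREG, a ligand of the EGF receptor, stood at 22.6, 20.7 and 19.1 CPM at 20 µg/mL and 24.3, 27.8 and 26.7 CPM at 100 µg/mL (0.34 ± 0.06, adjusted p = 0.00116), then rose by 1.79 ± 0.06 to 90.8 CPM. It was the only 1 called of 11 EGF receptor family genes, and none was called without replicate 2 of both doses (adjusted p = 0.0758 for EREG). PCK2, the mitochondrial enzyme that makes phosphoenolpyruvate, rose by 0.33 ± 0.08 (16, 20.4 and 19.3 to 24.2, 23.1 and 22.8 CPM), then by 2.35 ± 0.07 to 119 CPM. SLC7A5, the large neutral amino acid carrier, rose by 0.21 ± 0.05 with overlapping groups (1190, 1040 and 1080 against 1390, 1280 and 1170 CPM), then by 0.90 ± 0.05. The PCK2 call was lost without replicate 1 or 2 at 100 µg/mL (adjusted p = 0.0749 and 0.0543) or replicate 1 at 20 µg/mL (0.257), and that of SLC7A5 without replicate 1 or 2 at 100 µg/mL (0.248 and 0.101) or replicate 2 or 3 at 20 µg/mL (0.187 and 0.236), or without replicate 2 of both doses (0.425).

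Of 20 tested genes of fibrinogen, coagulation and complement 6 fell (against 0.608% of all genes tested) and none rose. The median over the 20 was -0.16. With the replicate block 8 fell and 1 rose. Fibrinogen is the clot precursor, built from 3 chains whose genes lie side by side on chromosome 4 (FGB 154562956 to 154571086, FGA 154583126 to 154590766, FGG 154604134 to 154612967 on GRCh38). FGB stood at 877, 860 and 920 CPM at 20 µg/mL and at 681, 659 and 711 CPM at 100 µg/mL, a change of -0.37 ± 0.04 (1.3-fold lower, adjusted p = 2.51e-08). FGA fell from 907, 1010 and 1010 to 747, 760 and 821 CPM (-0.33 ± 0.04, adjusted p = 2.12e-06), and FGG from 769, 775 and 851 to 621, 605 and 703 CPM (-0.31 ± 0.06, adjusted p = 0.000615). In each chain all 3 libraries at 100 µg/mL were below all 3 at 20 µg/mL, and the 3 log2 changes lay within 0.06 of each other.

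All 3 chains fell further to 500 µg/mL, by -0.92 ± 0.04 for FGB, -0.67 ± 0.04 for FGA and -0.60 ± 0.06 for FGG, each a larger step than the first (adjusted p = 6.67e-08, 0.000612 and 0.0308). For FGG this difference was lost without replicate 3 at 100 µg/mL (0.403), replicate 1 or 2 at 20 µg/mL (0.0697 and 0.0528) or replicate 2 at 500 µg/mL (0.0541). KNG1, the precursor of bradykinin, fell by -0.50 ± 0.10 (15.2, 15.2 and 20.5 to 12.7, 11.2 and 12 CPM), and its call was lost without replicate 3 at 20 µg/mL, the highest of its libraries (adjusted p = 0.187). PLAU, the urokinase plasminogen activator, changed by -0.26 ± 0.06 and C5, a complement component, by -0.23 ± 0.05. The PLAU call was lost without replicate 1 or 2 at 100 µg/mL (adjusted p = 0.0527 and 0.059), and the C5 call without replicate 1 or 2 at 100 µg/mL (0.189 and 0.059) or replicate 2 or 3 at 20 µg/mL (0.109 and 0.196). Without replicate 2 of both doses 4 of the 20 fell.

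Of 11 tested liver-type secreted proteins 5 fell (against 0.608% of all genes tested) and none rose, with a median of -0.45. APOB, the structural protein of low-density lipoprotein, had 9.52, 9.62 and 9.7 CPM at 20 µg/mL and 5.46, 5.59 and 6.83 CPM at 100 µg/mL. The doses were well apart, and the fall was -0.69 ± 0.11 (1.61-fold, adjusted p = 0.000147), followed by -1.73 ± 0.15. SERPINA1, the protease inhibitor alpha-1-antitrypsin, stood at 43.2, 35.7 and 45.8 CPM and then 33.9, 21.2 and 26.4 CPM (-0.62 ± 0.12, adjusted p = 0.00163). Replicate 2 was the lowest of both doses, and without it at 100 µg/mL the call was lost (adjusted p = 0.0704).

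TF, transferrin, the iron carrier of plasma, went from 11.3, 11.8 and 11.3 to 8.24, 9.09 and 7.24 CPM (-0.48 ± 0.11, adjusted p = 0.00917, and 0.128 without replicate 3 at 100 µg/mL). RBP4, which carries retinol, went from 129, 118 and 135 to 108, 81 and 90.1 CPM (-0.45 ± 0.08, adjusted p = 0.0002). RBP4 then stayed near that level, with -0.07 ± 0.08 to 500 µg/mL, and its first step was the larger (-0.39 ± 0.13, adjusted p = 0.0389). That difference was lost without replicate 2 or 3 at 100 µg/mL (adjusted p = 0.449 and 0.15), replicate 1 or 3 at 20 µg/mL (0.0631 and 0.0938) or replicate 1 at 500 µg/mL (0.0978). APOH, a phospholipid-binding plasma protein, changed by -0.40 ± 0.10, and its call was lost without replicate 2 or 3 at 100 µg/mL (adjusted p = 0.377 and 0.105) or replicate 1 or 3 at 20 µg/mL (0.0755 and 0.61). Of the 11 genes 3 fell without replicate 2, or without replicate 3, at 100 µg/mL, and 4 without replicate 2 of both doses. ALB, AFP and TTR, defining liver products, did not pass the filter on low counts.

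**Figure D2:**
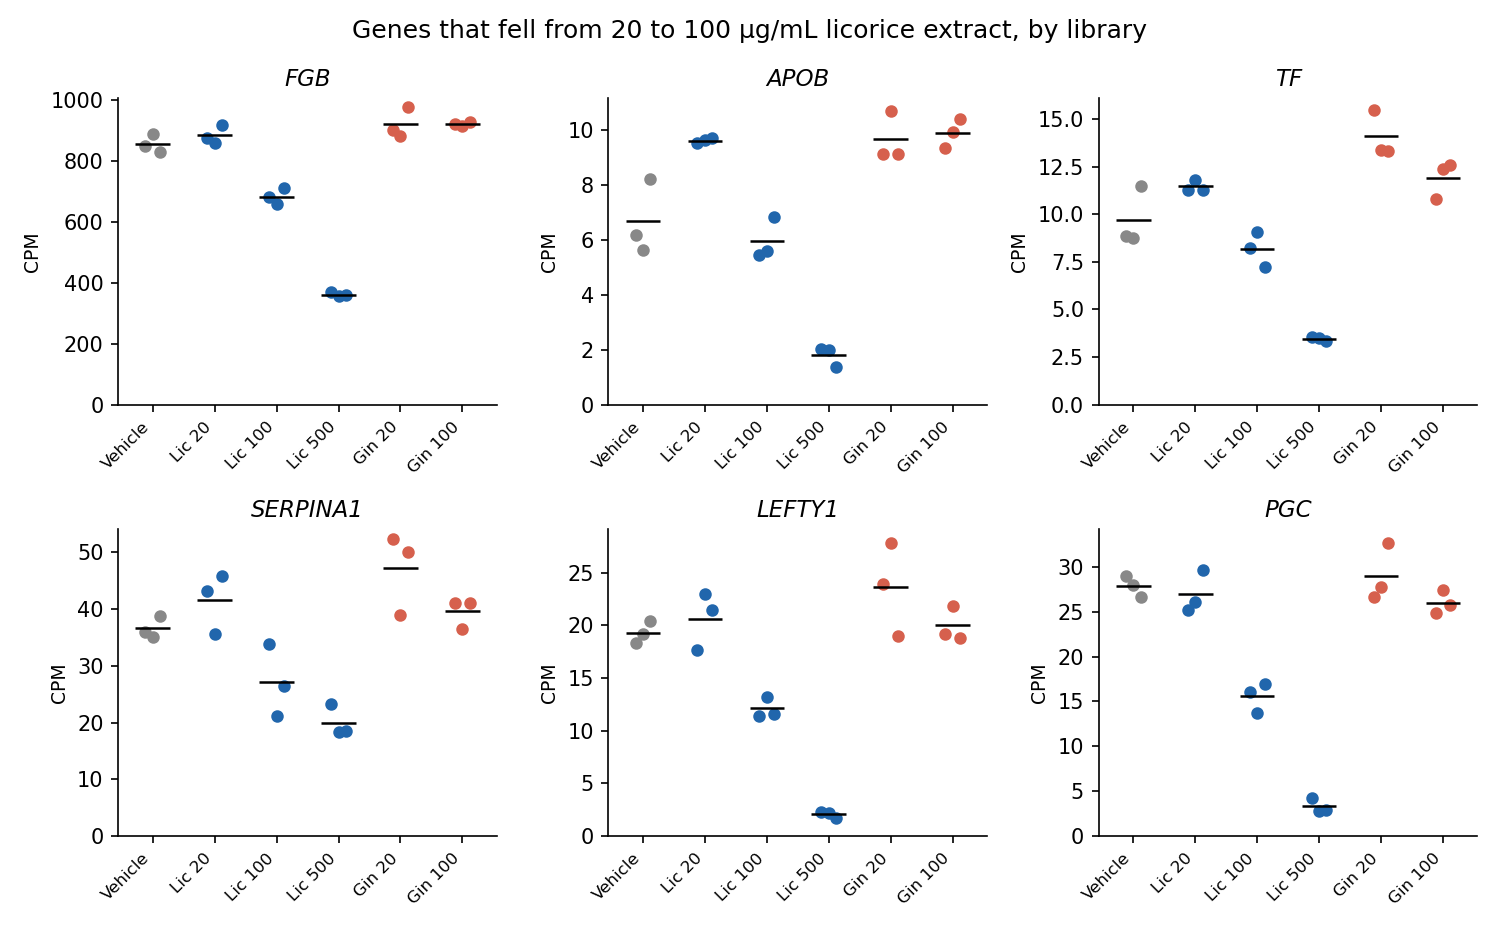
CPM of 6 genes in each library (points, linear axis from 0; black lines are means of 3 libraries) for vehicle, licorice extract (Lic) and ginseng extract (Gin) by dose in µg/mL. The genes were picked among called falls, most of which did not overlap between the doses, so their separation is no further support. In all 6 genes the 3 licorice libraries at 100 µg/mL lie below the 3 at 20 µg/mL, for FGB at 659 to 711 against 860 to 920 CPM, and the 3 at 500 µg/mL are lower than the mean at 100 µg/mL.

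Other large falls were spread over secreted signals, junctions and transcription. PGC, the zymogen of a gastric protease that is also made by alveolar cells, stood at 25.2, 26.1 and 29.7 CPM at 20 µg/mL and 16.1, 13.7 and 16.9 CPM at 100 µg/mL. It fell by -0.80 ± 0.09 (1.74-fold, adjusted p = 6.46e-08) and by -2.23 ± 0.12 in the second step. LEFTY1, a secreted antagonist of Nodal, stood at 17.6, 23 and 21.4 CPM and then 11.4, 13.2 and 11.6 CPM (-0.77 ± 0.12, adjusted p = 5.09e-05), and fell by -2.56 ± 0.17 to 2.05 CPM at 500 µg/mL. Both genes were separated between the doses in every library. STC1, a secreted glycoprotein of calcium and phosphate balance, went from 32.2, 32.5 and 37.6 to 20.4, 21.6 and 22.6 CPM (-0.67 ± 0.10, adjusted p = 3.58e-05), with a similar second step of -0.51 ± 0.11. ENSG00000223414, a transcript without a symbol in the tables used, fell by -0.62 ± 0.07.

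NR4A1, an immediate-early nuclear receptor, had 13.1, 9.73 and 13.1 CPM at 20 µg/mL and 8.61, 6.81 and 7.16 CPM at 100 µg/mL (-0.68 ± 0.10, adjusted p = 3.39e-05). MAPK4, an atypical MAP kinase, went from 8.01, 8.23 and 9.07 to 6, 5.12 and 5.29 CPM (-0.63 ± 0.09, adjusted p = 1.1e-05) and then fell by -2.45 ± 0.13. NTS, the peptide neurotensin, fell by -0.56 ± 0.08 (92.1, 83.7 and 100 to 63.6, 54.8 and 69.4 CPM). In NR4A1, MAPK4 and NTS no library at 100 µg/mL reached the lowest at 20 µg/mL. ST6GAL2, a sialyltransferase, fell by -0.57 ± 0.10, and CA9, a carbonic anhydrase known as a hypoxia gene, by -0.33 ± 0.05, the only 1 of 20 hypoxia and glycolysis genes called. CLDN2, a pore-forming claudin of tight junctions, had the largest fall among the genes named here (-1.05 ± 0.22, adjusted p = 0.00557), from 6.31, 3.98 and 5.27 to 3.39, 1.34 and 2.81 CPM. Replicate 2 was again the lowest of each dose, and the CLDN2 call was lost without replicate 2 at 100 µg/mL (0.16), replicate 1 at 20 µg/mL (0.0741) or replicate 2 of both doses (0.0542). DKK1, a Wnt antagonist, fell by -0.33 ± 0.07 (78.3 to 62.4 CPM), a call lost without the same replicates (0.125, 0.0741 and 0.139), and the mucin MUC13 by -0.39 ± 0.08, lost without replicate 2 at 100 µg/mL (0.0683) or replicate 3 at 20 µg/mL (0.0654).

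Several groups that moved widely from 100 to 500 µg/mL had no called member between 20 and 100 µg/mL. Over all genes tested 0.788% were called in that first step, so 0 called in a list of this size is near that share. Such a count does not set the list apart from other genes. At an unadjusted p under 0.05 were 1346 of all 17764 genes, to be set beside the unadjusted counts of the lists below. The second step called 6399 genes, 36% of those tested, 3201 higher and 3198 lower. It shares its 3 libraries at 100 µg/mL with the first, so only the values are set side by side and the difference is read from its own test. That test, of the signed log2 changes, called 2850 genes (16%). By their estimates the second step was larger in size in 2795 of them and the first in 55. Size itself was not tested, so a gene that turned back can be called with steps of like size. Of 16 effectors of ATF4 and CHOP, the transcription factors of amino acid and endoplasmic reticulum stress, none was called in the first step by edgeR or DESeq2 (3 at an unadjusted p under 0.05), with a median of 0.04. In the second 14 rose, with a median of 1.71. The steps differed by test in 13, each with the second larger in size by its estimate. ATF4 stood at 185 CPM at 20 µg/mL, 184 CPM at 100 µg/mL and 388 CPM at 500 µg/mL, DDIT3, the gene of CHOP, at 5.65, 5.87 and 25 CPM, and CHAC1, which degrades glutathione, at 2.47, 2.53 and 26.6 CPM.

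Of 14 enzymes that make asparagine, serine, proline and one-carbon units, PCK2 rose in the first step. SHMT1, a serine hydroxymethyltransferase, fell in that step (-0.20 ± 0.04, 225 to 196 CPM). In the second step 12 rose and 1 fell, while in the first 6 of the 14 had an unadjusted p under 0.05. With the replicate block over all libraries 3 rose, PCK2 with ASNS and PHGDH, and with the block in only the compared groups none was called. ASNS, asparagine synthetase, stood at 32.8, 32.7 and 34.8 CPM at 20 µg/mL and at 38.5, 36.7 and 39 CPM at 100 µg/mL, which do not overlap, and its change of 0.19 ± 0.05 was not called without the block (adjusted p = 0.0771). It then rose by 2.63 ± 0.05 to 237 CPM, a far larger step by test (-2.45 ± 0.09, adjusted p = 5.63e-25). PHGDH, the first enzyme of serine synthesis, was at 0.18 ± 0.05 (adjusted p = 0.0521) and then rose by 2.10 ± 0.04. Of 11 amino acid carriers 2 rose (SLC7A5 and SLC7A11), none without replicate 2 of both doses (0.425 and 0.156), and 9 in the second step. Of 20 aminoacyl-tRNA synthetases none was called by edgeR or DESeq2 (4 at an unadjusted p under 0.05), and in the second step 12 rose and 2 fell.

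MAP kinase feedback and ETS genes gave the same order of counts. None of 18 was called by edgeR or DESeq2 in the first step (2 at an unadjusted p under 0.05, both lower). In the second 15 were higher and 1 lower. The steps differed by test in 14, each with the second larger in size by its estimate. Of 22 p53 targets none was called by edgeR or DESeq2 in the first step (1 at an unadjusted p under 0.05), and 10 rose and 3 fell in the second. CDKN1A, the p53-induced cell cycle inhibitor, stood at 137, 138 and 239 CPM at 20, 100 and 500 µg/mL. Of 16 heat-shock chaperones none was called in the first step by either tool or at an unadjusted p under 0.05, and 11 fell and 1 rose in the second. Glucocorticoid-responsive genes had 1 member called of 19, TSC22D3, which rose by 0.16 ± 0.04 (221, 219 and 224 to 247, 246 and 252 CPM, with a lost call without replicate 3 at 100 µg/mL, adjusted p = 0.0633, or replicate 2 of both doses, 0.076). TSC22D3 fell by 0.21 on the log2 scale afterwards, when 14 of the 19 fell and 1 rose.

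Of 24 mitosis genes none was called in the first step by edgeR and 1 by DESeq2. At an unadjusted p under 0.05, reached by 1346 of all 17764 genes in either direction, 9 of the 24 were higher. Their log2 changes were all positive, with a median of 0.09, and over the Ginseng step they were also all positive (lowest 0.03), with the same median of 0.09. In the second step 19 of the 24 fell. Of 24 DNA replication genes 22 were positive in the first step with a median of 0.04. None of them was called by edgeR or DESeq2 (4 at an unadjusted p under 0.05), and 16 fell and 1 rose in the second. The Ginseng median of that list was 0.03. With the replicate block 1 of each list rose, the topoisomerase TOP2A (0.18 ± 0.05 without the block) and the thymidylate synthase TYMS (0.17 ± 0.05). MKI67, the proliferation marker, was at 0.06 ± 0.09 (385 ± 35.9 and 401 ± 27.9 CPM). Replicate 2 was the lowest MKI67 library of both doses. In all, 27 of the 45 gene lists had no called member in the first step, where 0.788% of all genes tested were called.

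**Figure D3:**
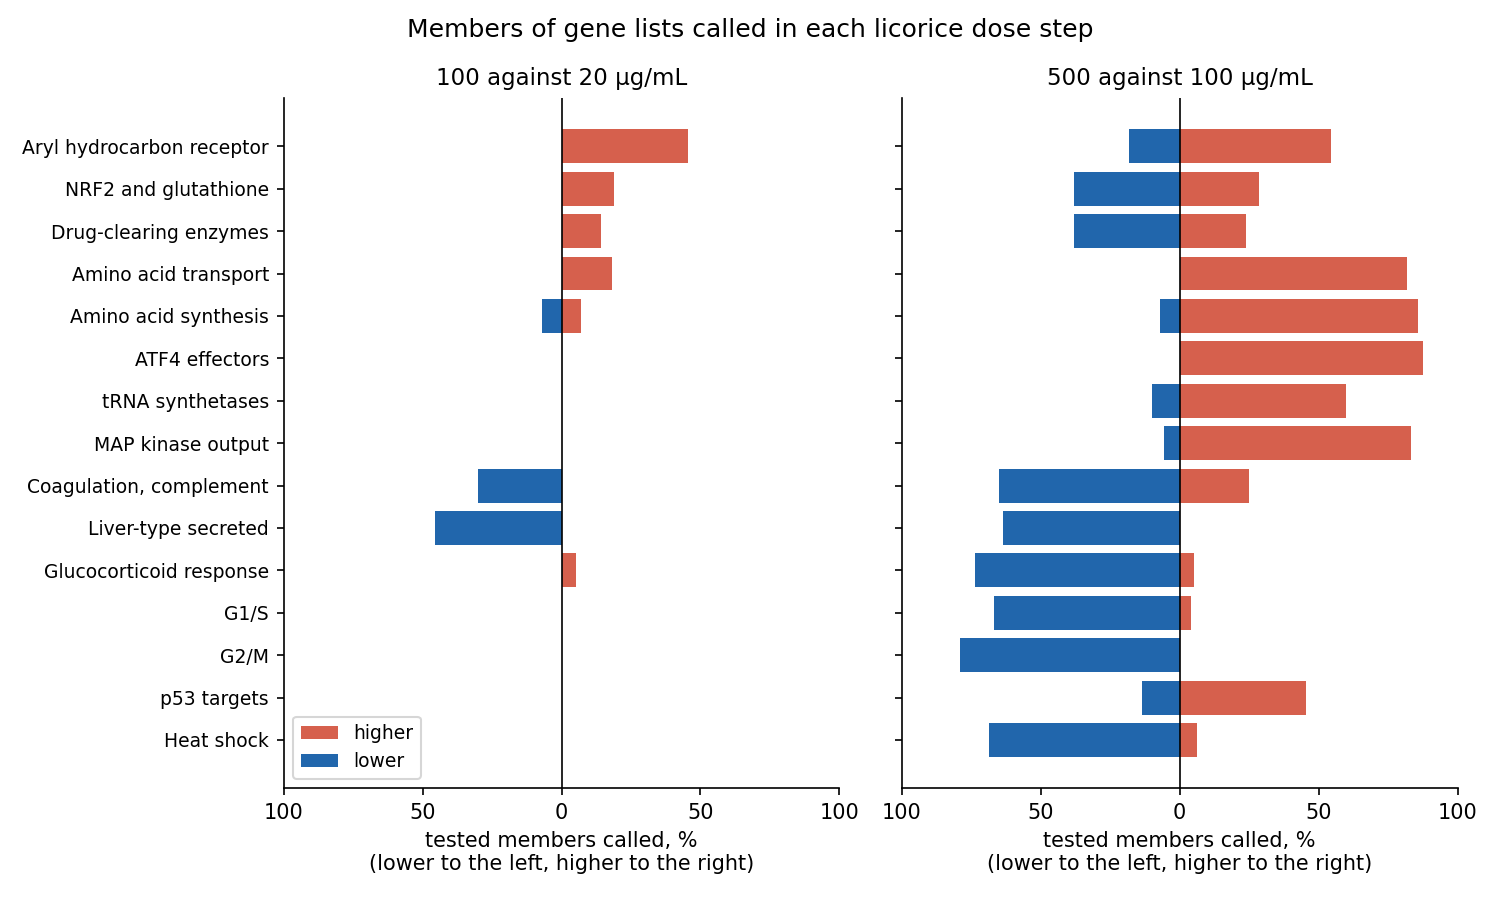
Share of the tested members of 15 gene lists called higher (right of 0) or lower (left of 0) between 20 and 100 µg/mL (left panel) and between 100 and 500 µg/mL (right panel) of licorice extract, in percent. The left panel has bars for the AHR list (5 of 11 higher) and the liver-type secreted list (5 of 11 lower) and none for 7 lists, among them ATF4 effectors and MAP kinase output. Over all genes tested 0.18% were called higher and 0.608% lower in that step. Lists and members were chosen with earlier results of these data known, so the shares describe and do not test.

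The genes that moved first and then stopped or turned back were few and mostly modest. PLCXD1, RHPN2, TFPI2 and EPAS1 were picked among called first steps that exceeded the second, so their values describe and do not test the order. PLCXD1, a phospholipase-like gene, fell by -0.33 ± 0.04 (163, 168 and 153 to 132, 130 and 124 CPM) and was level afterwards (-0.01 ± 0.04). RHPN2 fell by -0.33 ± 0.06 (29.7, 31 and 32.5 to 23.3, 26.1 and 24.6 CPM) and rose again by 0.21 ± 0.06. BEST2, a chloride channel of the bestrophin family and one of the largest rises, turned back by more than it had gained, from 18.2, 17.6 and 17.6 to 22.9, 21.5 and 21.8 CPM (0.31 ± 0.06, adjusted p = 0.00153) and then down by 2.08 on the log2 scale to 5.22 CPM. The doses of each of these genes did not overlap in the first step, and each kept its call without any 1 library. TFPI2, an inhibitor of serine proteases, and EPAS1, the hypoxia factor HIF-2 alpha, fell by -0.21 ± 0.05 and -0.20 ± 0.05 and stood at 0.16 ± 0.05 (called) and 0.06 ± 0.05 (not called) in the second step. Their first-step calls were each lost in 4 of the 6 fits that left out 1 library, with adjusted p up to 0.283 for TFPI2 without replicate 2 at 100 µg/mL and 0.264 for EPAS1 without replicate 1 at 20 µg/mL. The others were without replicates 1, 2 and 3 at 20 µg/mL for TFPI2 (0.0779, 0.0704 and 0.0951; 0.487 without replicate 2 of both doses), and without replicates 2 and 3 at 100 µg/mL and 3 at 20 µg/mL for EPAS1 (0.12, 0.13 and 0.0804).

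**Figure D4:**
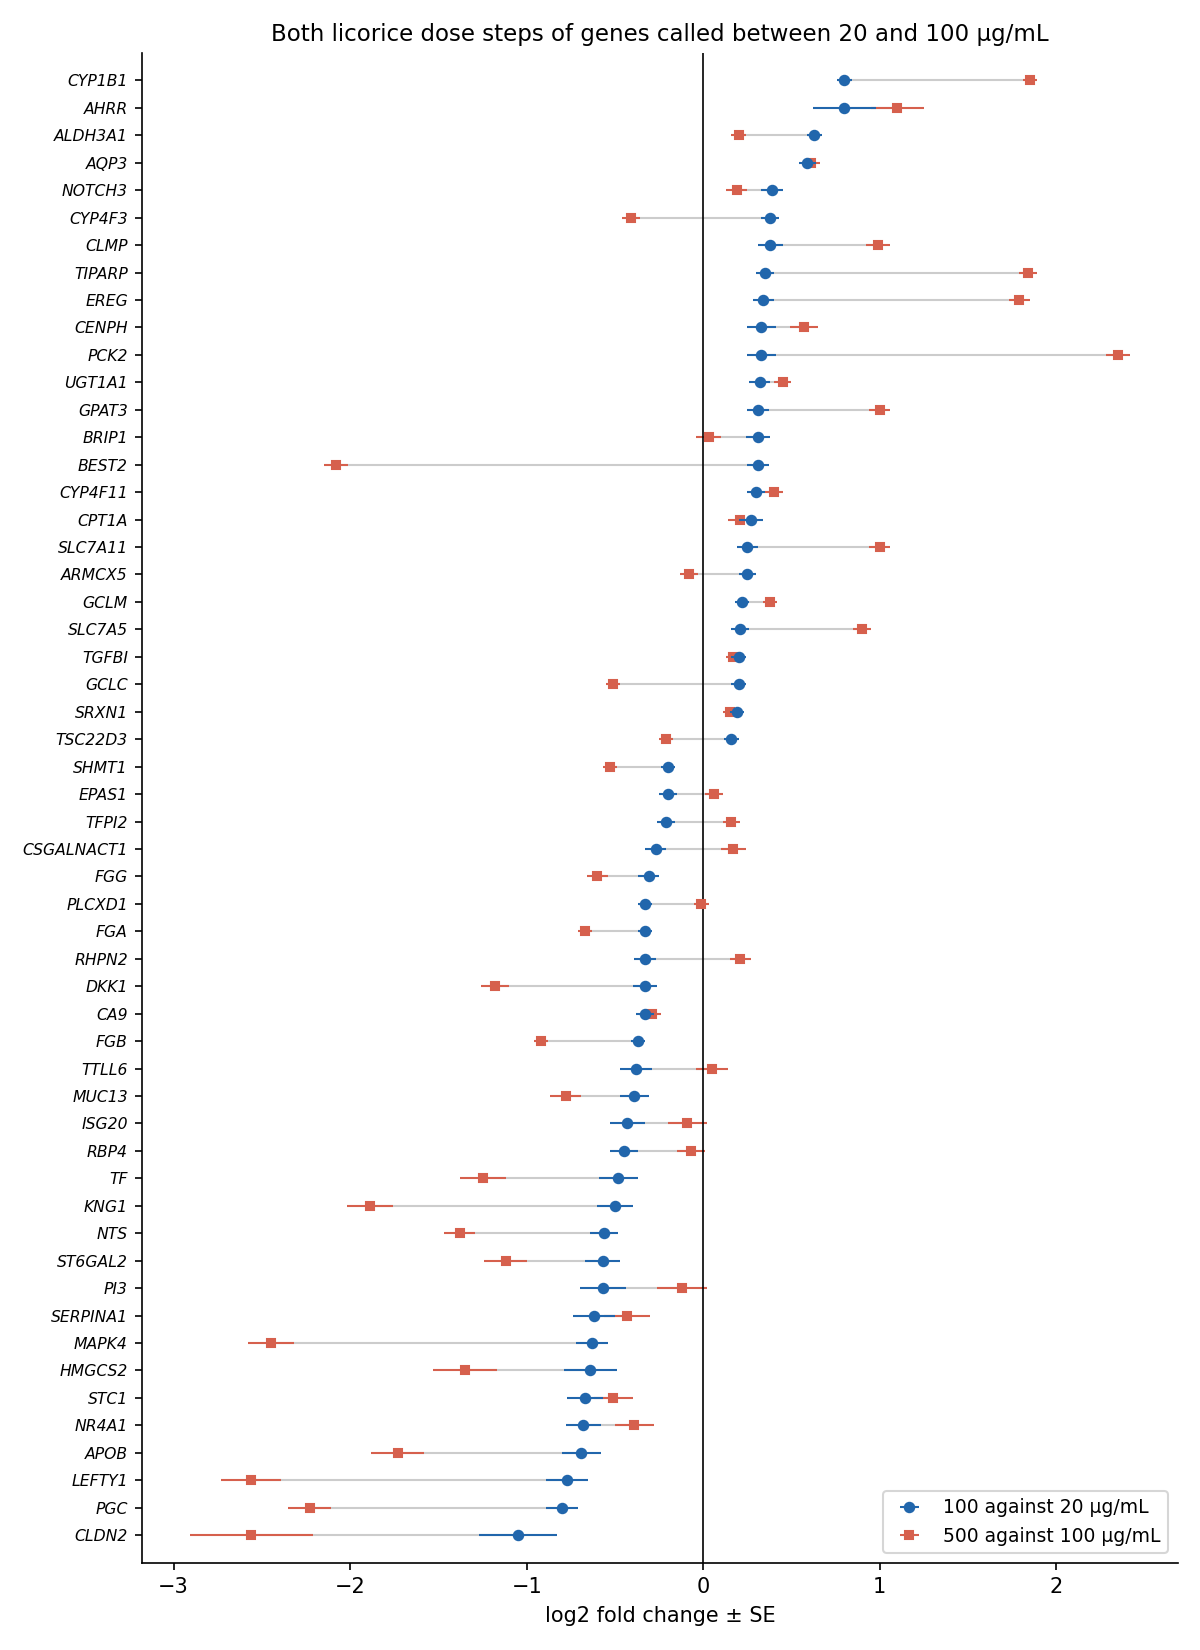
Log2 fold change ± SE of most of the named genes called between 20 and 100 µg/mL (circles), with their change between 100 and 500 µg/mL (squares), CYP1A1 left out because its changes (4.27 and 4.55) would compress the axis. Many squares lie further from 0 on the same side as the circle, as in PCK2 (0.33, then 2.35), while ALDH3A1, RBP4 and PLCXD1 moved more in the first step and BEST2, CYP4F3 and GCLC changed sides.

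The Ginseng extract over the same 2 doses gave no called gene by edgeR (0% of 17764), 554 genes at an unadjusted p under 0.05, and 3 called by DESeq2. The test of the difference between the 2 extracts' steps called 25 genes (0.141%), 8 higher and 17 lower with licorice, and 42 with the replicate block. CYP1B1 stood at 118, 122 and 116 CPM at 20 µg/mL of Ginseng and 122, 122 and 118 CPM at 100 µg/mL, which overlap, and its steps differed by 0.78 ± 0.06 (adjusted p = 3.27e-13). ALDH3A1 was at 905, 894 and 939 CPM and then 909, 905 and 885 CPM with Ginseng (difference of the steps 0.65 ± 0.06, adjusted p = 1.96e-10), and AQP3 at 57.8, 62.1 and 59.6 CPM and then 55.7, 57.8 and 58 CPM (0.66 ± 0.07, adjusted p = 1.62e-08). TIPARP differed by 0.46 ± 0.07 (adjusted p = 0.000221) and FGB, at a mean of 921 CPM in both Ginseng groups, by -0.37 ± 0.06 (adjusted p = 0.000202). In a fit of only the compared groups both calls were lost (adjusted p = 0.0557 for TIPARP and 0.324 for FGB). FGB was also lost in a fit of sample-code set 10 alone (0.0561). AHRR, SERPINA1, LEFTY1 and TF were not called in this test, with differences of 0.87 ± 0.27, -0.37 ± 0.16, -0.53 ± 0.16 and -0.25 ± 0.14, so no difference from Ginseng was shown for them. LEFTY1 was at -0.24 ± 0.11 and SERPINA1 at -0.25 ± 0.11 with Ginseng itself. Over the 108 genes that fell with licorice the Ginseng median was -0.05 (-0.55 to 0.19), and 78 of them had a negative change with Ginseng. Over the 32 that rose the median was 0.01 (-0.35 to 0.31), and 19 had a positive change. The Ginseng median over all genes tested was 0.0005.

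**Figure D5:**
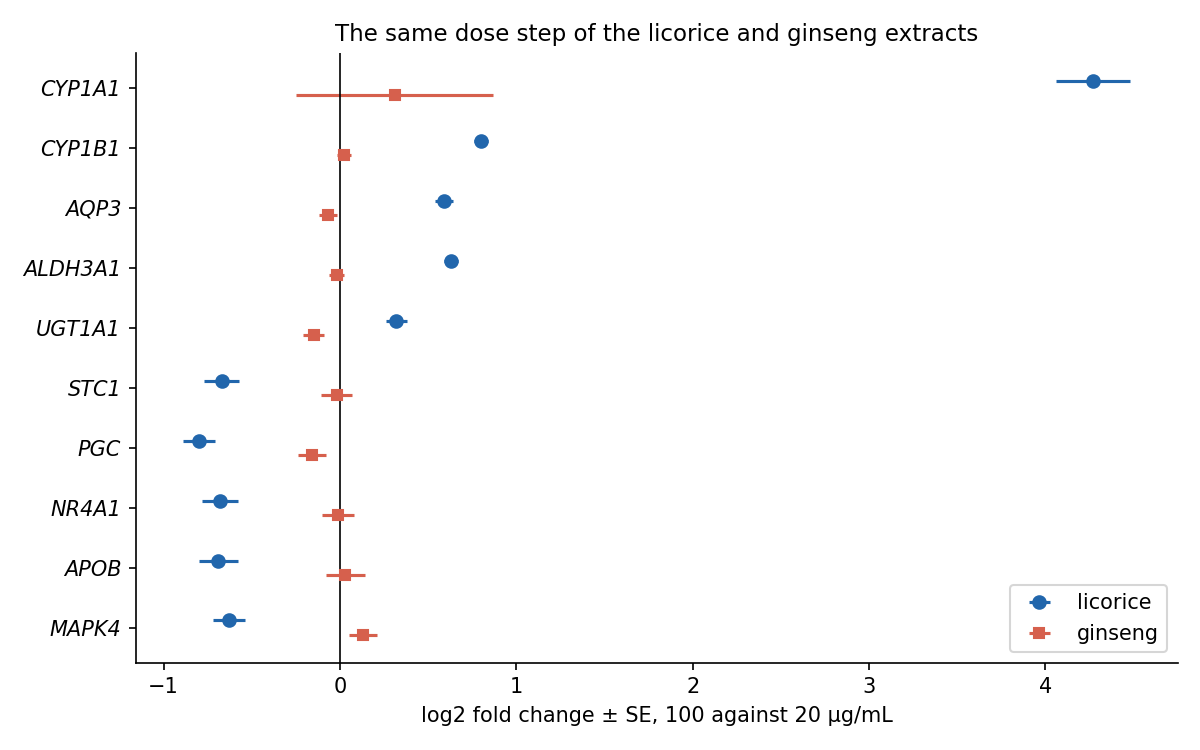
Log2 fold change ± SE between 20 and 100 µg/mL of licorice extract (circles) and ginseng extract (squares) for the 5 genes with the largest called differences between the extracts in each direction among genes with a symbol and at least 5 CPM. The licorice values run from -0.80 (PGC) to 4.27 (CYP1A1), and the ginseng values lie between -0.16 and 0.31, none of them called.

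Against the vehicle, 5119 genes (28.8%) were called at 20 µg/mL and 5842 (32.9%) at 100 µg/mL. The vehicle libraries carry another set of sample codes, so the extract and the set cannot be told apart in these comparisons, which also share libraries with the dose step. They show where the 20 µg/mL level lay. CYP1A1 was at 0.414, 0.269 and 0.266 CPM in the vehicle libraries, and 20 µg/mL differed from them by 0.56 ± 0.45 (adjusted p = 0.4). CYP1B1 was at 112, 113 and 112 CPM, and 20 µg/mL was higher by 0.33 ± 0.04 (adjusted p = 5.28e-08), with all 3 libraries above the vehicle. FGB was at 850, 890 and 831 CPM in the vehicle, which overlaps the 20 µg/mL libraries (0.05 ± 0.04, adjusted p = 0.422), and was lower by 0.33 at 100 µg/mL (-0.33 ± 0.04, adjusted p = 4.28e-08). APOB had 6.16, 5.64 and 8.21 CPM in the vehicle, so 20 µg/mL was higher by 0.54 ± 0.11 (adjusted p = 0.000306) and 100 µg/mL did not differ at the threshold (-0.15 ± 0.12, adjusted p = 0.374). NR4A1 had 20.5, 17.4 and 18.1 CPM in the vehicle and was already lower at 20 µg/mL (-0.64 ± 0.09, adjusted p = 1.04e-06). Licorice at 20 µg/mL had means of 9.61 CPM for APOB and 12 CPM for NR4A1. Ginseng, in the same set of sample codes, had 9.66 and 9.88 CPM of APOB at 20 and 100 µg/mL. Its means for NR4A1 were 14.2 and 14.1 CPM. In these libraries of whole cultures, fewer cells of a kind and less RNA per cell cannot be told apart.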

How the data were processed

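Expected counts per gene, estimated by RSEM and deposited by the authors as a table of the whole series, were used for 60 libraries of A549 cells, and 210 of its 270 columns were not used here. Per the submitters' processing notes, reads passed FastQC 0.11.9, Trim Galore 0.6.5, STAR 2.7.3a and RSEM 1.3.3 on GRCh38. Neither the annotation release nor the strand setting is given in these sources. The expected counts were rounded to whole numbers. Library totals were 18602484 to 29764358 counts. Genes were kept by edgeR's filterByExpr and scaled by TMM, and edgeR 4.0.16 (R 4.3.3) fitted 1 mean for each of 25 groups over all 60 libraries, with 35 residual degrees of freedom. Calls used a Benjamini-Hochberg adjusted p under 0.05 over 17764 genes, and the fit was tested on simulated data. The table holds 60675 gene identifiers, of which 41209 were matched to a symbol.

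Same-numbered licorice samples at 20 and 100 µg/mL deviated together from their group means (correlations 0.504, 0.631 and 0.219 over 10834 genes). The numbers were therefore taken as pairing them, and the fit with that block is an alternative. The pairing is less clear for replicate 3 at 20 µg/mL, which correlated more with replicate 1 at 100 µg/mL (0.364). The remaining pairs of unlike number lay between -0.634 and -0.073. No 2 libraries of a group agreed within sampling noise. Named genes had a symbol and at least 5 CPM: the 15 largest rises and falls, the 8 largest first-step-dominant changes each way, the 5 largest differences from Ginseng each way, up to 4 called members of each of 45 gene lists, and 11 fixed genes. Members and lists were chosen with earlier results of these data known. Alternatives were DESeq2 1.42.0, RLE size factors, no low-count filter, fewer libraries, the replicate block and leaving out each replicate. One added after seeing the data left out replicate 2 of both doses. The study's positive control was not analysed here. Results for a few genes are not reported here.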

Additional observations from a re-analysis of the deposited data

Results flagged for a closer look

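The change from 20 to 100 µg/mL differed between the licorice and the Ginseng extract, by the test of the difference itself, in 17 of the named genes, and the 5 with the largest differences each way are given here. The licorice minus Ginseng difference (log2, edgeR) was 3.95 for CYP1A1 (adjusted p = 0.0025), 0.78 for CYP1B1, 0.66 for AQP3, 0.65 for ALDH3A1 and 0.46 for UGT1A1 (adjusted p = 0.00219). It was -0.75 for MAPK4 (adjusted p = 0.000278), -0.72 for APOB (0.0347), -0.67 for NR4A1 (0.0164), -0.64 for STC1 (0.0278) and -0.64 for PGC (0.00729). CYP1B1, ALDH3A1 and AQP3 kept this call under every alternative run for it, and MAPK4 and UGT1A1 kept it without any 1 library.

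The other 5 lost it when 1 library was left out. CYP1A1, which is near 0 CPM with Ginseng, lost it without Ginseng 20 µg/mL replicate 2 (adjusted p = 0.153) or 3 (0.0575). APOB lost it without licorice 100 µg/mL replicate 1 or 2 (0.115 and 0.158), licorice 20 µg/mL replicate 1, 2 or 3 (0.069, 0.0695 and 0.0836), Ginseng 100 µg/mL replicate 2 or 3 (0.088 and 0.136) or Ginseng 20 µg/mL replicate 1 or 3 (0.125 and 0.0842). NR4A1 lost it without licorice 100 µg/mL replicate 2 or 3 (0.112 and 0.0638), licorice 20 µg/mL replicate 1 or 3 (0.0941 and 0.11), Ginseng 100 µg/mL replicate 1 or 3 (0.0528 and 0.0519) or Ginseng 20 µg/mL replicate 2 (0.12). STC1 lost it without licorice 100 µg/mL replicate 1 or 2 (0.0906 and 0.0844), licorice 20 µg/mL replicate 3 (0.177), Ginseng 100 µg/mL replicate 2 or 3 (0.0659 and 0.136) or Ginseng 20 µg/mL replicate 1 or 2 (0.094 and 0.158). PGC lost it without licorice 100 µg/mL replicate 2 (0.0844), licorice 20 µg/mL replicate 3 (0.0601), Ginseng 100 µg/mL replicate 2 (0.0555) or Ginseng 20 µg/mL replicate 1 (0.0528).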

How the results depend on the processing

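The licorice 100 against 20 µg/mL comparison called 140 genes, and 228 with no filter on low counts, 50 in a fit of sample-code set 10 alone, 8 in a fit of only the compared groups, 63 with the replicate block in those groups, 70 without replicate 2 of both doses, and 65 to 148 leaving out each replicate in turn. The replicate block over all libraries gave 211 and, for the licorice against Ginseng difference, 42 in place of 25; it ended no call of a named gene and added that of ASNS in the dose step, MKI67 in the difference between steps, and TTLL6, RHPN2 and EPAS1 in the difference from Ginseng. That difference gave 95 genes with no filter, 8 in set 10, 3 in only the compared groups and 14 to 24 leaving out each replicate. Ginseng gave 3 genes with DESeq2, 44 with no filter and 0 to 2 leaving out each replicate. The 2 licorice steps differed in 1545 genes in only the compared groups and in 1851 to 3158 leaving out each replicate. Licorice 100 µg/mL against vehicle gave 3637 genes in only the compared groups. Of the 140 genes, 8 kept their call under all 14 alternatives. No named gene reversed: 1574 values kept their side of the threshold, 289 lost the call and 13 gained it. The cause was not tested. The fold change of CYP1A1 rests on 6 to 16 counts in each library at 20 µg/mL.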
